A study of Danio rerio with 17 samples.

Results

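Genes that write, erase or read histone marks and genes that move nucleosomes were followed along the animal-vegetal axis of zebrafish (Danio rerio) oocytes. They were chosen by symbol, as names starting with kdm, kmt, setd, hdac, smarc, or with kat, chd or brd followed by a digit, and needed at least 10 reads over all libraries. The symbols matched 106 entries of the count files, and 100 of them reached 10 reads, out of 15394 such genes among 32520 in all. By symbol they comprised 21 genes of the kmt and setd families (methyltransferases), 21 kdm (demethylases), 10 kat (acetyltransferases), 10 hdac (deacetylases) and 18 smarc (mostly subunits of remodelling complexes). The others were 10 chd (mostly chromodomain helicases) and 10 brd (bromodomain proteins). Families were set by name, not by the function of each member. The study cut each of 4 oocytes into 5 segments and sequenced the total RNA of each segment after removal of ribosomal RNA, to learn where transcripts lie along this first axis of the embryo. The 17 libraries analysed here came from segment A at the animal end (4 libraries), B (3), C (4), D (3) and E at the vegetal end (3). Oocytes 1, 3 and 4 have both an A and an E library. The labels give no strain, female or stage, and name no treatment.

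A growing oocyte stores maternal RNA that serves the embryo until its own genome becomes active, and its nucleus, the germinal vesicle, comes to lie under the animal pole. Histone methyltransferases of the KMT2 and SET1 families place methyl groups on lysine 4 of histone H3 (H3K4), a mark of promoters and enhancers, and KDM5 enzymes take them off. Polycomb complexes methylate lysine 27 of the same histone (H3K27), which goes with silent genes, and KDM6 enzymes remove that mark. Acetyltransferases and deacetylases add and remove acetyl groups, and bromodomain proteins bind acetylated histones. Remodellers that contain SMARC or CHD proteins use ATP to shift, evict or space nucleosomes.

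Reads counted in genes ranged from 4054233 to 23672322 per library, with the 5 libraries of oocyte 1 at the low end (4054233 to 9319365). Spike-in RNA took at most 0.00239% of the reads in oocyte 1 and 0.185% to 0.802% in the others; the labels name no batch. Oocyte 1 has 1 library per segment, too few for values of its own, so values without it are given. Levels are CPM, reads relative to a library size scaled by the trimmed mean of M values (TMM), and 3 reads stood for 0.130 to 0.722 CPM. All 16 oocyte markers were measured, among them buc at 1624 CPM, nanog at 2417 CPM and h1m at 1137 CPM on average. Of 25 entries for follicle cell markers, 17 had no read, and the list's summed level was 203 to 286 CPM in segment E and 122 to 334 CPM in segment A, to which cyp11a1 gave 128 CPM on average. Of 11 entries for blood cells, 10 had no read, and the sum was 0 to 17.2 CPM in E and 0 in every A library; the part of such cells in the results was not tested. Fewer attached cells of a type and less RNA per cell cannot be told apart in such libraries, and a level is a share of the RNA in a slice, not a number of molecules.

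Segment E was compared with segment A, a linear trend was fitted over A to E as the log2 change per segment step, and a joint test looked for a difference between any segments. All are edgeR quasi-likelihood tests over all 17 libraries, and a gene is called where the p adjusted with the Benjamini-Hochberg method over all 12549 genes tested was under 0.05. Of the 100 chromatin genes, 98 passed the filter on low counts. Between E and A, 3 of the 98 were called, or 3.06%, against 1.91% of all genes tested, with 1 higher in E (kdm6b, 1.02% beside 1.03%) and 2 lower (kmt2d and kmt2c, 2.04% beside 0.885%). Along the trend, 7 of 98 were called, or 7.14%, against 2.33% of all genes, with 6 lower towards E (6.12% beside 1.25%) and 1 higher (1.02% beside 1.08%). The joint test called 4 (kmt2d, kmt2bb, kdm5b and kdm6b), or 4.08%, against 1.67% of all genes. At an unadjusted p under 0.05 the 3 tests gave 16, 18 and 11 of the 98, beside 1010, 1194 and 888 of all 12549 genes tested. Without oocyte 1 the calls were 0, 3 and 1, where 152, 204 and 151 of all genes were called. The joint test called 17 with the authors' own scaling factors in place of TMM (462 of all genes) and 22 with oocyte as a block besides (702 of all genes).

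These shares depend on how deeply a gene was read, and all 7 called genes averaged 100 CPM or more. The 50 chromatin genes at that level had a median standard error (SE) of 0.31 for the log2 fold change of E over A, the 36 between 10 and 100 CPM one of 1.14, and the 12 below 10 CPM one of 3.35, and the median biological coefficient of variation between libraries was 0.34, 0.99 and 2.76 in the same order, so small changes of low genes were not detectable in these libraries. Against the 2673 genes of at least 100 CPM, the 3 calls between E and A were 6% of 50 beside 7.63% (1 higher, 2% beside 4.04%, and 2 lower, 4% beside 3.59%), and the joint test's 4 calls were 8% beside 6.55%. The 6 genes that fell along the trend were 12% of 50, beside 4.98% of all genes at that level. The 1 gene that rose was 2% of 50, beside 4.15%. This split by direction depends on the scaling. With the authors' factors the trend called 4 chromatin genes lower and 2 higher (295 of all genes tested). E against A then called 1 lower and 1 higher (233 of all genes tested).

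The direction of change was then counted over called and uncalled genes together. Of all 98, 22 were lower in E than in A in each of the 3 oocytes with both segments (22.4% beside 11.1% of all genes tested) and 11 higher (11.2% beside 13.8%). Of the 50, 15 (30%) were lower in each, against 16.8% of all genes of at least 100 CPM, and 7 (14%) were higher in each, against 21%. The ranges of E and A did not overlap with E lower for 10 of 98, or 10.2%, beside 3.82%, and with E higher for 3 of 98, or 3.06%, beside 4.61%. At 100 CPM or more this held with E lower for 7 of 50, or 14%, beside 8.04% of all genes at that level, and with E higher for kdm6b and kdm4b, or 4%, beside 8.64%. The fitted trend was below 0 for 62 of 98, against 51% of all genes tested, and for 34 of 50, against 47.7% of all genes at that level. With the authors' own factors in place of TMM it was below 0 for 20 of 50 (40%), against 29.5%; those factors place the median of all genes tested at 0.22 (log2, E over A). The median log2 change of E over A was -0.23 for the 98 genes and 0.00 for all genes tested with TMM, and -0.01 against 0.22 with the authors' factors. Within oocytes 1, 3 and 4 the median of the 98 genes, as log2 of CPM + 1, was -0.15, 0.04 and -0.01, so it was not below 0 in oocyte 3, and without A of oocyte 4 the fitted median was -0.13.

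**Figure D1:**
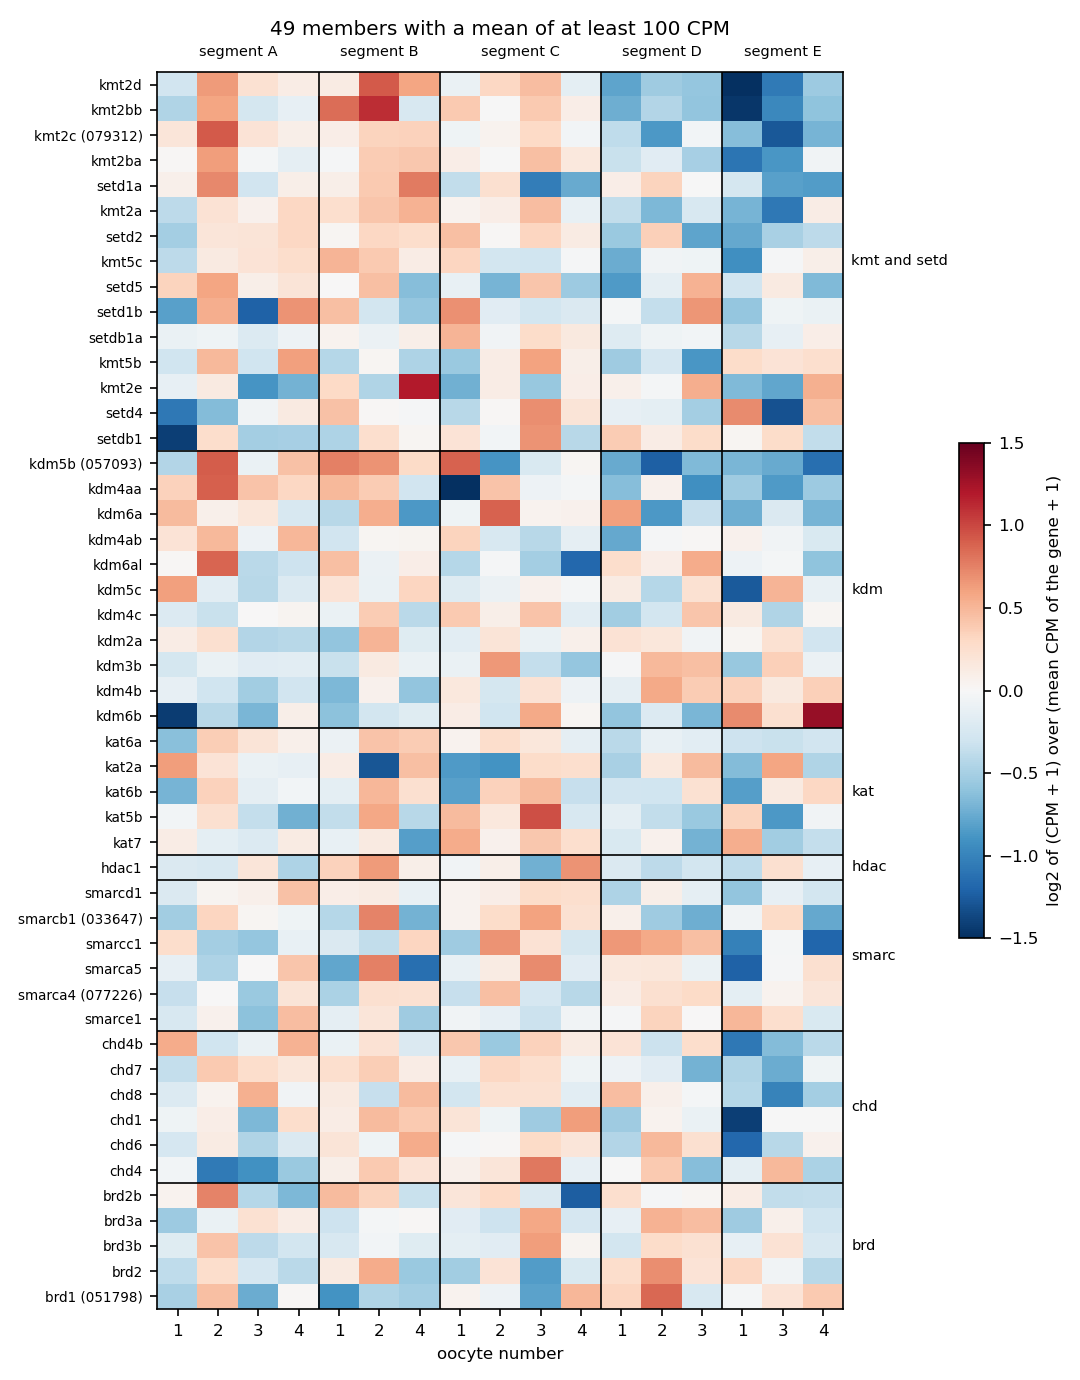
Levels of 49 of the 50 chromatin genes that averaged 100 CPM or more (rows, grouped by family) in the 17 libraries (columns, by segment A to E and oocyte number), as log2 of CPM + 1 over the gene's mean CPM + 1. The top rows of the kmt and setd family, from kmt2d at 191 to 409 CPM in E and 489.9 to 932 CPM in A, are below their mean in D and E, whereas kdm6b is highest in E.

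Of the 6 genes that fell along the trend, 4 encode methyltransferases for H3K4 (kmt2d, kmt2c, kmt2bb and kmt2ba). Segment B, and not the animal end, held the highest mean in 16 of the 50 well-read chromatin genes (32%), against 17.7% of all genes at that level, and in 7 of the 15 of the kmt and setd family. With the authors' factors B led in 18 of 50 (36%), against 26.3%, but D led in more, 21 of 50 (42%), against 48.2% of all genes at that level. The summed level of the 21 kmt and setd genes was 6182 ± 1277, 7089 ± 633, 6297 ± 639, 4995 ± 215 and 4411 ± 583 CPM in segments A to E (SD, n = 4, 3, 4, 3 and 3). The median log2 change of E over A of the 15 well-read members was -0.54 with TMM and -0.32 with the authors' factors.

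kmt2d (ENSDARG00000037060) encodes an H3K4 methyltransferase known for enhancers. It had 489.9, 932, 705 and 648 CPM in segment A of oocytes 1 to 4, 654, 1133 and 905 CPM in B of oocytes 1, 2 and 4, 559, 744, 828 and 543 CPM in C of oocytes 1 to 4, 346, 414 and 399 CPM in D of oocytes 1 to 3, and 191, 287 and 409 CPM in E of oocytes 1, 3 and 4. Every D and E library lay below every library of A, B and C. The level fell by 0.37 ± 0.06 (SE) on the log2 scale per step (edgeR, adjusted p = 5.51e-05), and E over A fell by 1.23 ± 0.28 (edgeR, adjusted p = 0.00533). The trend and the joint test (edgeR, adjusted p = 0.000566) kept their calls in all 29 alternative settings, each library and each oocyte left out in turn among them. The call between E and A was lost without E of oocyte 1 (adjusted p = 0.134) and without oocyte 1 (adjusted p = 0.0747).

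kmt2c (ENSDARG00000079312), the closest relative of kmt2d in vertebrates, was the other methyltransferase called between the ends. It had 338, 565, 344 and 317 CPM in A, 322, 378 and 381 CPM in B, 287, 309.5, 369.6 and 290.5 CPM in C, 230.5, 164 and 289.8 CPM in D, and 192, 123 and 184 CPM in E, with oocytes in the order just given. All 3 E libraries lay below the lowest A library, and the highest A library was that of oocyte 2, which has no E library here. E over A fell by 1.23 ± 0.31 on the log2 scale (edgeR, adjusted p = 0.0150), and the trend fell by 0.31 ± 0.07 per step (edgeR, adjusted p = 0.00294). The call between E and A was lost with the authors' factors (adjusted p = 0.0886), without A of oocyte 2 (0.159), E of oocyte 3 (0.268) or E of oocyte 4 (0.0553), and without oocyte 1, 2 or 3 (0.0501 to 0.206). The trend was lost without E of oocyte 3 (adjusted p = 0.0610) and without oocyte 2 (0.0945). Its joint test did not pass (edgeR, adjusted p = 0.0923) but passed with the authors' factors (0.0405) and with DESeq2 (0.00101).

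The paired genes kmt2ba and kmt2bb are zebrafish copies of KMT2B, an H3K4 methyltransferase that acts at promoters and is needed in mouse oocytes. kmt2bb (ENSDARG00000060697) had 319, 659, 365 and 404 CPM in A, 781, 945 and 370.1 CPM in B, 575, 437, 578 and 471 CPM in C, 263, 323 and 289.7 CPM in D, and 159, 223 and 287 CPM in E. The E libraries lay below all A libraries, and B of oocytes 1 and 2 were the highest of all. The trend fell by 0.32 ± 0.07 per step on the log2 scale (edgeR, adjusted p = 0.00178), and the joint test called it too (edgeR, adjusted p = 0.00224). Without oocyte 1 both calls were lost (adjusted p = 0.0526 and 0.309), and E over A, at -0.97 ± 0.30, did not pass (edgeR, adjusted p = 0.109).

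kmt2ba (ENSDARG00000062962) had 625, 955, 605 and 563 CPM in A, 608, 804 and 819 CPM in B, 659.8, 612, 844 and 690.3 CPM in C, 489, 546 and 437 CPM in D, and 288, 337 and 596 CPM in E. Its E and A ranges overlapped, since E of oocyte 4 was higher than A of the same oocyte, whereas every D library lay below every A, B and C library. The trend fell by 0.21 ± 0.06 per step, only just past the threshold (edgeR, adjusted p = 0.0473). It was lost with relative log expression factors (adjusted p = 0.0543), with the authors' factors (0.243), without any 1 of 11 libraries (0.0512 to 0.384: A of oocytes 1 to 3, B of oocytes 2 and 4, C of oocytes 1 and 2, D of oocytes 1 and 3, E of oocytes 1 and 3), and without oocyte 1, 2 or 3 (0.284 to 0.423). The joint test of kmt2ba did not pass (edgeR, adjusted p = 0.401) but passed with the authors' factors (0.0245).

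With kmt2a, setd1a and setd1b, the other H3K4 methyltransferases of the KMT2 and SET1 families with at least 100 CPM, 7 genes can be set side by side, a grouping made with their values known. All 7 had a trend below 0, 4 of them called, and 5 were lower in E in each of the 3 oocytes with both segments. Of all genes of 100 CPM or more, 47.7% had a trend below 0, 4.98% were called with a trend lower towards E and 16.8% were lower in E in each oocyte. With the authors' factors 6 had a trend below 0, and setd1b stood at 0.03. Left out of the 7 was kmt2e, a KMT2 gene by name that also averaged at least 100 CPM. Its change from A to E, as log2 of CPM + 1, was -0.54, 0.11 and 1.25 in oocytes 1, 3 and 4. kmt2a (ENSDARG00000004537) averaged 684 ± 137, 861 ± 82.3, 720.0 ± 127, 488 ± 73.5 and 472 ± 206 CPM in A to E. Its trend of -0.19 ± 0.06 per step did not pass in the fit without oocyte as a block (edgeR, adjusted p = 0.110), and passed with it (adjusted p = 0.0437). setd1a, the catalytic subunit of a SET1 complex, averaged 269.6 ± 64.5 CPM in E and 472 ± 145 CPM in A, a log2 difference of -0.81 ± 0.30 (edgeR, adjusted p = 0.321). setd2, which methylates lysine 36 of histone H3, averaged 360.2 ± 46.8 CPM in E and 553 ± 126 CPM in A, a log2 difference of -0.62 ± 0.28 (edgeR, adjusted p = 0.580). The joint test of setd1a and setd2 was not called in edgeR with TMM. It was called for both with the authors' factors, and for setd1a with DESeq2.

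Of 14 genes for core and associated COMPASS subunits, 0 were called in any of the 3 edgeR tests with TMM, 0 had an unadjusted p under 0.05 and 0 were called by DESeq2. With 1.91% of all genes called between E and A, a list of 14 would hold few calls or none. Their median log2 change of E over A was 0.27 with TMM and 0.49 with the authors' factors, beside -0.39 and -0.17 for the 21 tested kmt and setd genes. wdr5, a scaffold of all these complexes, averaged 203 ± 85.2 CPM in E and 244 ± 91 CPM in A. ncoa6, a partner of the KMT2C and KMT2D complexes, averaged 618 ± 70.6 CPM in E and 526 ± 44.7 CPM in A, a log2 difference of 0.23 ± 0.25 (edgeR, adjusted p = 1). The joint test called ncoa6 with the authors' factors, with and without oocyte as a block.

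**Figure D2:**
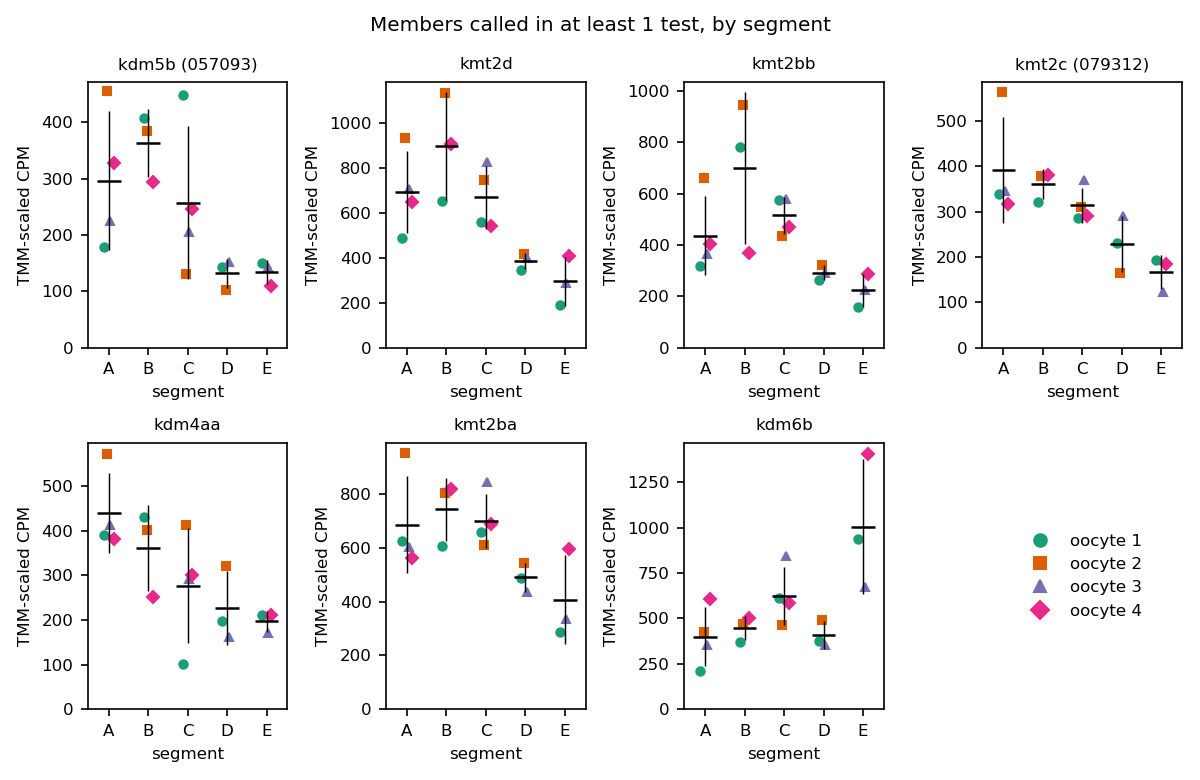
TMM-scaled CPM (vertical axis, starting at 0) by segment A to E for the 7 chromatin genes called in at least 1 test, where numbers in brackets end the identifier of an entry whose symbol is shared. Points are libraries marked by oocyte, horizontal bars are means and vertical lines are ± SD. In 5 genes every E library is below every A library, as in kdm4aa with 170.2 to 211 CPM in E, in kmt2ba the ranges overlap, and kdm6b has 674 to 1407 CPM in E.

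Demethylases held calls in both directions. The summed level of the 21 kdm genes differed little between the ends, at 4046 ± 347 CPM in E (n = 3) and 3993 ± 508 CPM in A (n = 4, SD), while kdm6b rose and kdm5b and kdm4aa fell. Of the 20 tested, 3 were called along the trend, or 15%, beside 2.33% of all genes tested, and all 3 are among the 11 of 100 CPM or more, where 9.13% of all genes were called. The median log2 change of E over A of the 11 well-read members was -0.13 with TMM and 0.07 with the authors' factors, so its sign depends on the scaling.

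kdm6b (ENSDARG00000088087), which removes methyl groups from H3K27, was the chromatin gene that rose. It had 211, 426, 355 and 605 CPM in segment A of oocytes 1 to 4, 371, 469 and 502 CPM in B of oocytes 1, 2 and 4, 614, 462, 845 and 583 CPM in C of oocytes 1 to 4, 377, 493 and 355 CPM in D of oocytes 1 to 3, and 935, 674 and 1407 CPM in E of oocytes 1, 3 and 4. All E libraries lay above all A libraries, D lay at the level of A and B, and C lay between on average, so the profile was not a steady slope. E over A was 1.33 ± 0.29 on the log2 scale (edgeR, adjusted p = 0.00225), with E higher in 3 of 3 oocytes by 2.14, 0.92 and 1.21, and the joint test passed (edgeR, adjusted p = 0.00425). Without E of oocyte 4 the log2 change was 1.03 (adjusted p = 0.0622) and without oocyte 1 it was 1.17 (adjusted p = 0.0595), and the joint call was lost as well (0.134 and 0.143). The trend of 0.25 per step (edgeR, adjusted p = 0.0147) was lost without A of oocyte 1 (0.0846), A of oocyte 3 (0.0530), E of oocyte 4 (0.182) or oocyte 1 (0.253).

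The 2 other well-read KDM6 genes did not pass. kdm6a, whose human counterpart lies on the X chromosome and is also known as UTX, had a log2 change of E over A of -0.67 ± 0.40 (edgeR, adjusted p = 0.697), and its relative kdm6al one of -0.36 ± 0.31 (edgeR, adjusted p = 0.948). The duplicate kdm6bb had 19 reads in all, every one from segment C of oocyte 1, and was not tested.

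kdm5b (ENSDARG00000057093), which removes methyl groups from H3K4, had 178, 455, 225 and 329 CPM in A, 409, 385 and 295 CPM in B, 448, 130.1, 205 and 246 CPM in C, 142, 103 and 152 CPM in D, and 149, 142 and 109.6 CPM in E. D and E were uniformly low, and the 4 C libraries spread over most of the range. The trend fell by 0.38 ± 0.08 per step (edgeR, adjusted p = 0.00236) and was called in all 29 alternative settings. E over A, at -1.15 ± 0.36, did not pass (edgeR, adjusted p = 0.116) but passed with oocyte as a block (-1.19, adjusted p = 0.0384). The joint call (edgeR, adjusted p = 0.0246) was lost without A of oocyte 2 (0.0530), oocyte 1 (0.0624) or oocyte 2 (0.0822), and with a minimum of 10 CPM on average (0.0571). A second entry of the same symbol (ENSDARG00000003098) averaged 44.8 ± 21.2 CPM in E and 86.5 ± 45.5 CPM in A and was not called. The other well-read KDM5 gene, kdm5c, was not called either. Its change from A to E, as log2 of CPM + 1, was -1.88, 0.93 and 0.10 in oocytes 1, 3 and 4.

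kdm4aa (ENSDARG00000018782), a copy of KDM4A, which removes methyl groups from lysines 9 and 36 of histone H3, had 391, 573, 413 and 381 CPM in A, 430.0, 402 and 251 CPM in B, 102, 413, 292 and 301 CPM in C, 196, 321 and 162 CPM in D, and 211, 170.2 and 210.1 CPM in E. The E libraries lay below all A libraries, and C of oocyte 1 was the lowest of all. The trend fell by 0.30 ± 0.08 per step (edgeR, adjusted p = 0.0160), and E over A, at -1.16 ± 0.34, did not pass (edgeR, adjusted p = 0.0679). The trend was lost with the authors' factors (0.101), without A of oocyte 2 (0.0821) or E of oocyte 3 (0.0746), and without oocyte 1 (0.0709) or 3 (0.0970).

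kdm4b, of the same subfamily as kdm4aa, had 538, 468 and 541 CPM in E, against 388, 343, 293 and 346 CPM in A. Its ranges did not overlap, but E over A, at 0.59 ± 0.27, and the trend did not pass (edgeR, adjusted p = 0.586 and 0.147). The trend was called with DESeq2 (adjusted p = 0.00614) and, in edgeR, with the authors' factors (adjusted p = 0.0130), as was the joint test with those factors (adjusted p = 0.0184). kdm3b, which acts on lysine 9, averaged 421 ± 132 CPM in E and 387 ± 18.1 CPM in A, a log2 difference of 0.12 ± 0.29 (edgeR, adjusted p = 1).

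A ratio of 2 genes within a library does not depend on scaling. The log2 ratio of kdm6b to kmt2d was 1.23 to 2.29 in the 3 E libraries and -1.21 to -0.10 in the 4 A libraries. The ratio of kdm6b to kdm5b was 2.24 to 3.68 in E and -0.10 to 0.88 in A, and that to kmt2bb was 1.59 to 2.56 in E and -0.63 to 0.58 in A. For each of the 6 called genes that fell, the ratios in E lay above all those in A. The genes were chosen for their calls, so these ratios describe the libraries and were not tested.

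Acetyltransferases and deacetylases held no called gene. None of the 10 kat and 10 hdac genes passed in any edgeR test, and DESeq2 called 1 (kat2b). Between E and A, 1 kat gene and 0 hdac genes had an unadjusted p under 0.05 with edgeR, beside 1010 of all 12549 genes tested. kat6a, the acetyltransferase also known as MOZ, averaged 535 ± 9.63 CPM in E and 686 ± 183 CPM in A, a log2 difference of -0.36 ± 0.26 (edgeR, adjusted p = 0.825). kat7, which acetylates histones with JADE and BRPF partners, averaged 289 ± 123 CPM in E and 291 ± 34.5 CPM in A. kat5b, a copy of the TIP60 acetyltransferase, averaged 138 ± 53.2 CPM in E and 131 ± 37.2 CPM in A.

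kat2b, a homologue of PCAF, has the smallest adjusted p of these families between E and A, at a low level. It had 0.147, 0.0479 and 0.0514 CPM in E, 1 read or fewer per library, against 53.5, 14.5, 8.12 and 1.71 CPM in A. The A libraries thus spread over most of the range, and the libraries of B to D had 1.05 to 43.7 CPM. The test between E and A did not pass with edgeR (adjusted p = 0.150).

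hdac1, a class I deacetylase of the NuRD and Sin3 complexes, was the deacetylase with at least 100 CPM. It averaged 170.2 ± 33, 248 ± 47.9, 202 ± 78.1, 156 ± 9.13 and 183 ± 40.4 CPM in A to E, and E over A was 0.10 ± 0.36 on the log2 scale (edgeR, adjusted p = 1). The interval of 1 SE on either side thus spans a fall as well as a rise, and no difference was detectable. The class II deacetylases hdac4 and hdac5 had log2 differences of -0.06 ± 0.68 and -0.13 ± 1.24 (edgeR, adjusted p = 1 for both).

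Remodelling and reader genes also held no called gene. None of the 18 smarc, 9 tested chd and 10 brd genes passed in any edgeR test. Over these 3 families and the kat and hdac genes together, 57 were tested. Of the 57, 5, 6 and 1 had an unadjusted p under 0.05 in the 3 tests, beside 1010, 1194 and 888 of all 12549 genes. Among the 9 tested chd genes alone these counts were 4, 4 and 0. The median log2 change of E over A of those 9 was -0.73 with TMM and -0.51 with the authors' factors. For all genes tested it was 0.00 and 0.22. Of the 6 chd genes of at least 100 CPM it was -0.41 and -0.20, beside 0.03 and 0.25 for all genes at that level. DESeq2 called 1 of the 57 between E and A, 2 along the trend (kat2b and chd7) and 0 in the joint test. The summed level of the chd genes was 1980.1 ± 302 CPM in E and 2703 ± 232 CPM in A, and every E library lay below every A library. For chd7, the chd gene with the highest mean, the ranges of E and A overlapped. The sum of the kat genes was also lower in every E library, at 1326 to 1382 CPM, against 1403 to 1722 CPM in A. These sums are of TMM-scaled CPM. The median log2 change of E over A of the 10 kat genes was -0.16 with TMM and 0.07 with the authors' factors, so its sign depends on the scaling. How often such sums stay apart in other sets of genes was not counted. The sum of the brd genes was 2693 ± 483, 2955 ± 309, 2930.3 ± 326, 3508 ± 148 and 2804 ± 129 CPM in A to E, highest in D, and the median log2 change of E over A was 0.09 for its 6 well-read members and -0.08 for all 10, so its sign depends on the members used. No difference between families was tested.

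chd7, the helicase mutated in human CHARGE syndrome, averaged 1141 ± 237, 1229 ± 111, 1116 ± 167, 843 ± 184 and 787 ± 189 CPM in A to E, a trend of -0.16 ± 0.06 per step (edgeR, adjusted p = 0.160). chd8, its close relative, had 298, 200.4 and 283 CPM in E, against 349, 416, 581 and 387 CPM in A. The ranges did not overlap, but E over A, at -0.73 ± 0.29, did not pass (edgeR, adjusted p = 0.386).

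smarca4, the ATPase also known as BRG1, averaged 722 ± 82.9 CPM in E and 638 ± 149 CPM in A for the entry that holds nearly all its reads (ENSDARG00000077226), a log2 difference of 0.18 ± 0.26 (edgeR, adjusted p = 1). The second entry of that symbol had 1.58 CPM on average. smarcd1, an accessory subunit of the same complexes, averaged 499 ± 81.2 CPM in E and 670.1 ± 128 CPM in A, and smarce1, their HMG-box subunit, 574 ± 142 CPM in E and 487 ± 154 CPM in A. Neither passed (edgeR, adjusted p = 0.694 and 1). brd2 and brd3a, BET proteins that bind acetylated histones, had log2 differences of E over A of 0.15 ± 0.28 and -0.18 ± 0.27 (edgeR, adjusted p = 1 for both).

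**Figure D3:**
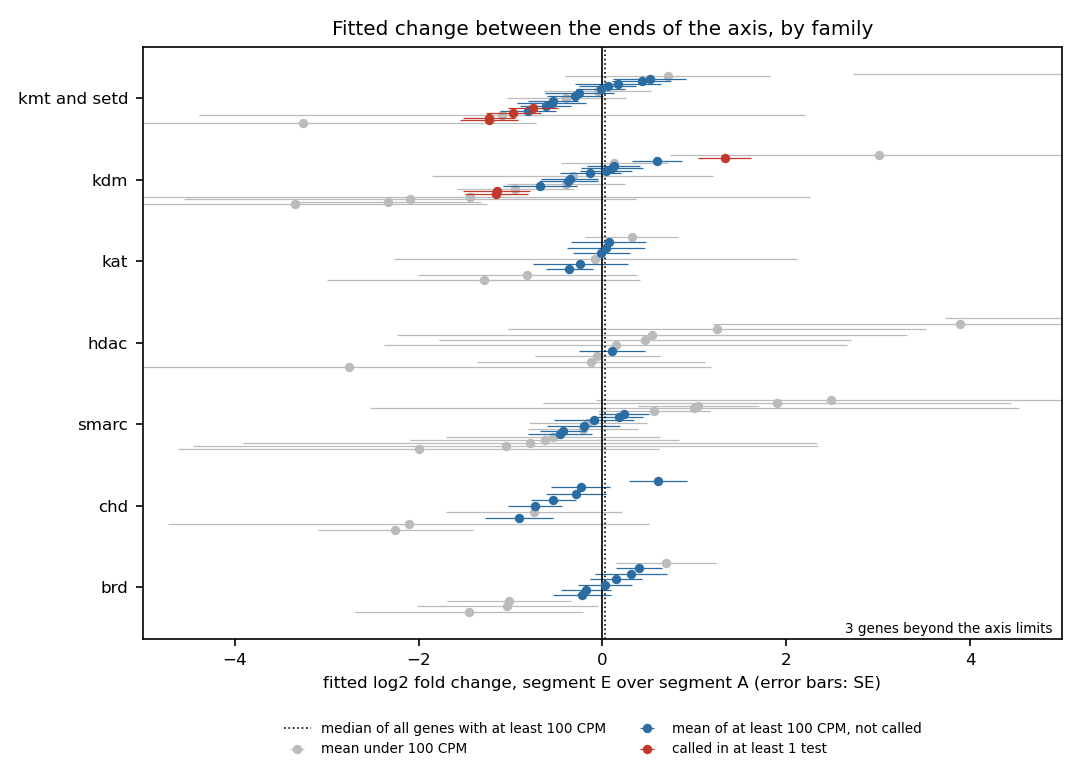
Fitted log2 fold change of segment E over segment A (horizontal axis, bars ± SE) for the 98 tested chromatin genes, in rows by family. Red marks genes called in at least 1 test, blue other genes that averaged 100 CPM or more and grey genes below that, and 3 genes lie beyond the axis limits of 5. Blue and red points of the kmt and setd row lie mostly left of the dotted median of all genes of at least 100 CPM at 0.03, with a median of -0.54, and those of the brd row lie around it.

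Zebrafish keep many of these genes as duplicates, and the levels of copies were compared along the axis. Of 21 pairs with both copies tested, 6 had both copies at 100 CPM or more. Ratios of copies were taken within each library, as log2 of CPM + 1. chd4 and chd4b, copies of the NuRD helicase, had a log2 ratio of chd4 to chd4b of 0.69 to 1.91 in E and -0.31 to 0.17 in A, which do not overlap. chd4 averaged 316 ± 112 CPM in E and 208 ± 69.4 CPM in A, and chd4b averaged 114 ± 26.1 CPM in E and 214 ± 62.3 CPM in A. Neither copy was called alone (edgeR, adjusted p = 0.635 and 0.456 between E and A), and reads of near-identical copies may be split between them or dropped in counting. The ratio of kdm4aa to kdm4ab was -0.48 to 0.00 in E and 0.12 to 0.81 in A on the log2 scale, and kdm4aa was already among the called genes. How often such ranges stay apart in other pairs of genes was not counted. The ratios thus only describe these copies and were not tested.

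In the other well-read pairs the ranges of the ratio in E and A overlapped. That of kmt2ba to kmt2bb was 0.59 to 1.05 in E and 0.48 to 0.97 in A. That of brd2 to brd2b was 0.23 to 0.60 in E and -0.20 to 0.55 in A. Where 1 copy held most reads, as in smarca4, kmt2c, kat7 and kat5 with 445, 23.3, 21.3 and 3.82 times the reads of the other copy, the copy with few reads was not called in any test. The pair kmt5aa and kmt5ab, copies of the enzyme that methylates lysine 20 of histone H4, had means of 90.7 and 67.8 CPM and overlapping ratios.

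Members at the edge of detection were counted but carried no result. The 2 just above the rule's minimum that could not be tested were kdm6bb with 19 reads and chd5, a helicase known from neural tissue, with 240 reads, all of them in segment A of oocytes 1 and 2. setd9 with 6 reads lay just below the minimum, and hdac6, chd3, hdac12, setd1bb and a second brd8 entry had 0 reads. Among tested genes, hdac11 had 0 reads in all A libraries, smarca1 0 in all B libraries and hdac7b 0 in all C libraries, while other segments of each held up to 173, 614 and 233 reads in a library. None of these passed a test.

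Genes outside the symbol rule that build the same complexes were taken from 8 lists: Polycomb, COMPASS subunits, NuRD and Sin3, other BAF subunits, INO80, SWR1 and ISWI remodellers, other methyltransferases, other acetylation factors and histone chaperones. Of 257 symbols, 239 were matched and 216 entries were tested. Between E and A, 5 were called (3 higher, 2 lower), or 2.31%, beside 1.91% of all genes, and along the trend 7 were called (4 higher, 3 lower), or 3.24%, beside 2.33%. The joint test called 2, or 0.926%, beside 1.67%, and the median log2 change of E over A was 0.06. Of the 98 entries with at least 100 CPM, 4 were called between E and A, or 4.08%, beside 7.63% of all genes at that level. At the same level the trend called 6 (6.12% beside 9.13%) and the joint test 2 (2.04% beside 6.55%). Histone chaperones, other BAF subunits, other acetylation factors and COMPASS subunits held 0 called genes of 24, 19, 49 and 14 in each edgeR test with TMM. Of these 106 genes, 6, 9 and 4 had an unadjusted p under 0.05, beside 1010, 1194 and 888 of all 12549 genes. DESeq2 called 4, 4 and 1 of the 106.

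The genes that fell were srcap, dot1l and baz1b. srcap (ENSDARG00000005236), the ATPase that exchanges histone H2A for H2A.Z, had 278, 396 and 411 CPM in E, against 571, 833, 708 and 933 CPM in A. The ranges did not overlap, and E over A fell by 1.07 ± 0.27 (edgeR, adjusted p = 0.0149), a call lost with the authors' factors (0.0996), without E of oocyte 1 (0.224) or A of oocyte 4 (0.0702), and without oocyte 1, 3 or 4 (0.0519 to 0.128). Its trend fell by 0.25 ± 0.06 per step (edgeR, adjusted p = 0.00790) and was lost with the authors' factors (0.0805), without E of oocyte 1 (0.0987) and without oocyte 1 (0.0936).

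dot1l, which methylates lysine 79 of histone H3, had 181, 228 and 261 CPM in E, against 419, 648, 422 and 398 CPM in A, and E over A fell by 1.08 ± 0.30 (edgeR, adjusted p = 0.0363). That call was lost without any 1 of 5 libraries (0.0528 to 0.337: A of oocytes 2 and 3 and all 3 of E) and with the authors' factors (0.196), and its trend (edgeR, adjusted p = 0.0291) without any 1 of 6 (0.0573 to 0.217: A of oocyte 2, B of oocyte 1, D of oocytes 2 and 3, E of oocytes 1 and 3) and with the authors' factors (0.180). Without oocyte 1, 2 or 3 both calls were lost (0.125 to 0.352 and 0.107 to 0.283). baz1b, a partner of the ISWI ATPase, averaged 123 ± 15.7 CPM in E and 281 ± 62.4 CPM in A. Its trend fell by 0.29 ± 0.08 per step (edgeR, adjusted p = 0.0243) and was lost with the authors' factors (0.140), without any 1 of 5 libraries (0.0702 to 0.142: B of oocyte 1, A of oocyte 2, D of oocyte 3, E of oocytes 3 and 4) and without any 1 oocyte (0.0856 to 0.229).

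The genes that rose were ino80db, gatad2b, suz12 and sap130. gatad2b (ENSDARG00000005834), a subunit of NuRD, had 116, 149.9 and 142 CPM in E, against 5.46, 2.34, 21.1 and 7.3 CPM in A. Segments B to D lay mostly between, at 3.88 to 114 CPM, and E over A was 3.91 ± 0.87 on the log2 scale (edgeR, adjusted p = 0.00334), a call that no left-out library or oocyte ended. Its joint test did not pass (edgeR, adjusted p = 0.0501) and passed with oocyte as a block (0.00452). ino80db (ENSDARG00000062226), a subunit of the INO80 remodeller, averaged 1064 ± 339 CPM in E and 70.7 ± 14.8 CPM in A and had the steepest trend of the 4, 1.00 ± 0.08 per step (edgeR, adjusted p = 1.91e-14).

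suz12 (ENSDARG00000070256), a core subunit of the Polycomb complex that methylates H3K27, had 761, 258 and 198 CPM in E, against 119, 204, 84.5 and 165 CPM in A. The ranges overlapped and 1 library, E of oocyte 1, stood far above the rest. E over A was 1.50 ± 0.37 (edgeR, adjusted p = 0.0136), and the value was 0.69 without that library (adjusted p = 0.888) and 0.59 without oocyte 1 (0.963), and the call was also lost without A of oocyte 1 (0.0565) or 3 (0.0954). Its trend (edgeR, adjusted p = 0.0271) was lost without the same libraries (0.0795 to 0.831), without oocyte 1 (0.971) and with a minimum of 10 CPM on average (0.0534), and its joint test did not pass (edgeR, adjusted p = 0.0717) but passed with oocyte as a block (0.0306), with the authors' factors (0.0257), without a filter (0.00365) and with DESeq2 (0.0147). A second suz12 entry (ENSDARG00000098924) averaged 184 ± 10.6 CPM in E and 127 ± 58 CPM in A and was not called. No other of the 32 Polycomb genes tested was called by edgeR. In each test 3 of the 32, suz12 included, had an unadjusted p under 0.05, beside 1010, 1194 and 888 of all 12549 genes. DESeq2 called phc3 besides suz12 between E and A and along the trend (adjusted p = 0.0294 and 0.00415). ezh2, which places the H3K27 mark, averaged 86.5 ± 43.7 CPM in E and 96.9 ± 17.9 CPM in A.

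sap130 (ENSDARG00000079352), a subunit of the Sin3 complex, averaged 249 ± 87.8, 251 ± 37.7, 338 ± 22.1, 650.5 ± 129 and 397 ± 225 CPM in A to E, highest in D. Its trend rose by 0.27 ± 0.07 per step (edgeR, adjusted p = 0.0143) and its joint test passed (edgeR, adjusted p = 0.0112). The trend was lost without E of oocyte 1 (0.547), A of oocyte 1 (0.0594), A of oocyte 4 (0.0594) or oocyte 1 (0.890), and the joint call without D of oocyte 2 (0.121) or oocyte 1 (0.113).

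**Figure D4:**
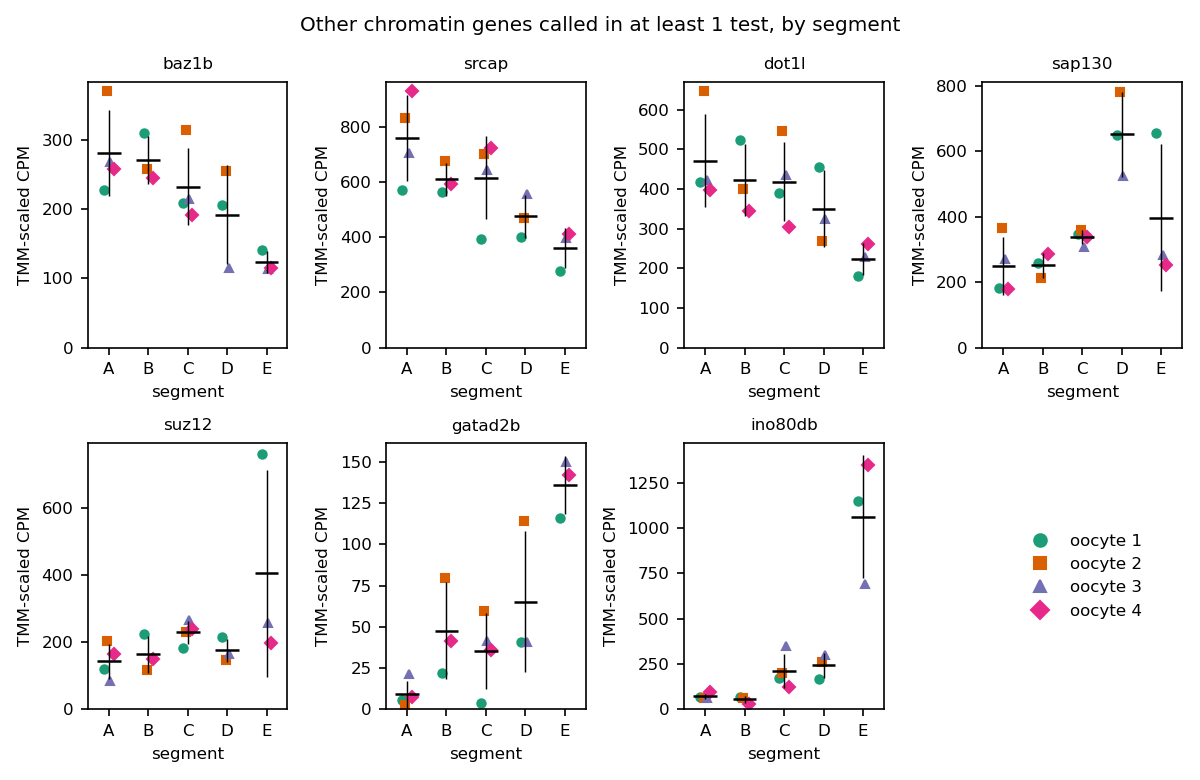
TMM-scaled CPM (vertical axis, starting at 0) by segment A to E for the 7 genes of the wider chromatin lists called in at least 1 test; points are libraries marked by oocyte, horizontal bars are means and vertical lines are ± SD. gatad2b has 116 to 149.9 CPM in E and at most 21.1 CPM in A, and the high mean of suz12 in E comes from oocyte 1 at 761 CPM.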

How the data were processed

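Total RNA of oocyte slices was depleted of ribosomal RNA and sequenced, per the labels' protocols. The submitters' processing notes name Trimmomatic, STAR 2.5.3a, HTSeq, DESeq2 and the build GRCz11, without their roles. The authors deposited raw counts per gene and library, and a table of normalized signal, in which the counts are divided by 1 factor per library (100% of its values came back as whole reads within 0.01, and 100% equalled the counts); it was used for the authors' factors only. Spike-ins and the counter's summary entries stayed out of library sizes and tests. Of all entries, 4.60% to 6.10% lay outside genes, 0.502% to 0.633% in overlapping genes and 6.88% to 14.2% had several alignments. Near-identical copies may thus be under-counted, which was not measured. Whether strand was used is not given in the sources used here.

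Segments and oocytes came from the labels. Symbols came from a table pairing 29201 identifiers (89.8%) with names, matched in any case and written in lower case; 17 of the 100 genes share a symbol with another entry. No gene length, sequence or annotation of this build was used, so levels are not per length, and reads of different genes serve only to choose genes and to describe copies.

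Genes kept by filterByExpr (minimum count 10, by segment; 12549 genes with 99.8% of the counts) were fitted with edgeR 4.0.16 in R 4.3.3, with TMM factors and 1 coefficient per segment over all 17 libraries. Quasi-likelihood F-tests, 2-sided, gave E against A, the linear trend and the joint test, with Benjamini-Hochberg adjustment over all genes tested. SE is the log2 change over the square root of F. Libraries with the same number are from the same oocyte, so the numbers pair them: the median correlation of deviations from segment means over 2673 genes was 0.0709 for 28 pairs of the same oocyte and -0.0358 for 87 pairs sharing neither. P-values measure the spread between these libraries, and the labels do not say whether the oocytes came from separate females. In simulated counts 200 genes, all of 53 CPM or more, were changed by an even log2 slope from A to E. Libraries of an oocyte were drawn independently. For E against A, the test recovered 58 of 100 genes changed 4-fold and 97 of 100 changed 16-fold, with 6 false among 161 calls. The trend recovered 74 and 99, with 12 false among 185. These shares do not cover genes of lower level or profiles that are not a steady slope. The joint test made 34 false among 187 calls, 2 of them in genes of 53 CPM or more.

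The genes and lists were chosen with earlier results of these data known. Named genes are those called, the 3 with the highest mean per family, the duplicate pairs with the 4 largest and 4 smallest ratios, the called genes of the wider lists and the genes next to the minimum, except 1 gene that is not reported here singly; others named were chosen after their values were seen. Alternatives were other scaling factors, no filter or a mean of at least 10 CPM, DESeq2 1.42.0, oocyte as a block, and each library or oocyte left out.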

Additional observations from a re-analysis of the deposited data

Results flagged for a closer look

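Among 80 groups of 4 libraries (segments A and C of the genes named), 9 had 1 library whose gap to the nearest of the other 3 exceeded Dixon's 95% critical share of the group's range; chance gives about 4. In 4 of the 9 that library was segment A of oocyte 2, an oocyte with no E library here. There, kdm4aa had 573 CPM (381 to 413 CPM in the other A libraries), kmt2ba 955 CPM (563 to 625), kmt2c (ENSDARG00000079312) 565 CPM (317 to 344) and dot1l 648 CPM (398 to 422). All 4 genes were named for calls lower towards E, so these flags are not independent of that choice. Without that library the trends of kdm4aa, kmt2ba and dot1l and the E against A calls of kmt2c and dot1l were lost.

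Segment C of oocyte 2 held smarca4 (ENSDARG00000077226) at 967 CPM (528 to 591 in the other C libraries), its second entry (ENSDARG00000104339) at 0.289 CPM (0 in the others) and kat7a at 7.22 CPM (0 to 0.0875). brd3a had 794 CPM in segment C of oocyte 3 (426 to 472 in the others). The second kmt2c entry (ENSDARG00000075560) had 24.8 CPM in segment A of oocyte 3 (0 to 3.17 in the others).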

How the results depend on the processing

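No result of the 14 called genes changed direction in any of 29 settings. Of 1015 such values, from 35 results in the 29 settings, 889 kept their side of the threshold, 107 lost a call and 19 gained one. They cover all 3 tests of the called chromatin genes, but only the called tests of the wider genes. Gains in other tests of the wider genes, such as the joint tests of suz12 and gatad2b, are thus not among the 19. Of 38 other named genes that were followed through the settings, 19 changed sign in at least 1, setd1b with the authors' factors among them. In at least 1 test and setting 15 were called, 4 of them in E against A or the trend (kdm4b, kmt2a, chd7 and kat2b). With DESeq2, calls among the chromatin genes were 9 (E against A), 11 (trend) and 6 (joint), and among the wider lists 11, 14 and 9, while all genes called were 700, 832 and 329 against 240, 292 and 209 with edgeR. With the authors' factors the joint test called 17 chromatin genes and 20 of the wider lists (462 of all genes), and with oocyte as a block as well 22 and 32 (702 of all genes); E against A and the trend called 3 and 4 wider genes, 0 of them lower; the cause was not tested. No filter gave 4 wider genes in the joint test. The replicate block alone gave 4, 8 and 4 chromatin genes and 4 wider genes in the joint test; among named genes it added kdm5b (E against A), kmt2a (trend), gatad2b and suz12 (joint) and changed no other call. The median of the 98 genes was -0.0119 with the authors' factors and -0.0256 with the block added. With 1 library or oocyte left out, chromatin genes called were 0 to 5 (E against A), 3 to 8 (trend) and 1 to 4 (joint), wider genes 2 to 6, 3 to 7 and 1 to 4, and the median -0.352 to -0.130. Without oocyte 1 the chromatin counts were 0, 3 and 1 (152, 204 and 151 of all genes). Without E of oocyte 3 the trend had 4 (261 of all genes), and without oocyte 4, E against A had 5 (206 of all genes). The alternative of levels per coding length was not run, since no lengths were used. Spread between libraries, counting error included, limits genes below 100 CPM.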
